A study of Mus musculus with 18 samples.

Results

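The postnatal maturation of the normal lens was examined by comparing 3 libraries of wild-type (WT) lenses from 14-day-old mice with 3 libraries of WT lenses from 2-day-old mice. These are 6 of the 18 libraries of the series, and they were chosen by the genotype and age given for each sample. The 2-day-old WT lenses (*Cryaa*-R49C-WT) came from the knock-in line whose mutant allele encodes the R49C form of αA-crystallin, and the 14-day-old WT lenses (*Cryab*-R120G-WT) from the line whose mutant allele encodes the R120G form of αB-crystallin. Both lines were kept on a C57BL/6J background, and neither WT group carried a mutant allele. Each age was taken from a different line, so age and line cannot be told apart in any value given here. Several whole lenses were pooled for each library, and no label gives the sex of the animals or a shared litter. A p-value thus measures the spread between pools, which the gene tests estimated over all 18 libraries, those of mutant lenses included. A further 6 libraries of heterozygous (het) lenses, *Cryaa*-R49C-het at 2 days and *Cryab*-R120G-het at 14 days, each with 1 WT and 1 mutant allele of the named gene, served as a second comparison of the same ages with no library in common. The 14-day het samples were grouped by their titles, which name the *Cryab* line, while their genotype field names the R49C allele of *Cryaa*, so these labels contradict each other.

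The lens grows throughout life from a single layer of epithelial cells under its anterior capsule. Epithelial cells divide near the equator, leave the cell cycle and elongate into fibre cells, which fill with α-, β- and γ-crystallins, couple through gap junctions and aquaporins, build a cytoskeleton of beaded filaments, and finally degrade their nuclei, mitochondria and endoplasmic reticulum. In mice the eyelids open at about the later of these ages, and the fetal vessels that surround the lens (the tunica vasculosa lentis and the hyaloid system), together with their macrophages, regress after birth. A whole-lens library mixes epithelium and fibres of all ages with any attached tissue, so for every gene below fewer cells of a type and less RNA per cell cannot be told apart.

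Library totals ran from 14272174 to 24639638 counts at day 2 and from 18238553 to 27620319 at day 14, and between 18917 and 19661 genes at day 2 and between 16199 and 16572 genes at day 14 had at least 1 count. A few genes took most of these counts. The 10 most counted genes of a library held 66.4% to 73.6% of its counts at day 2 and 76.6% to 78.2% at day 14. Trimmed mean of M values (TMM) scaling, which sets the bulk of genes level between libraries, gave factors of 1.32, 1.20 and 2.00 at day 2 and of 0.498, 0.545 and 0.488 at day 14. Levels are given as TMM CPM, a gene's counts divided by the scaled library total, and a fold change on this scale is therefore relative to the typical gene of the lens and not to the whole mRNA pool. Scaled by their totals only (library size alone), the libraries gave a median over genes of -1.61 in place of -0.07, a median shift of -1.55 per gene, so a gene with a TMM log2 fold change above 0 but below about 1.55 rose against the typical gene while its share of all counts did not.

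Of 13938 genes tested with edgeR's quasi-likelihood test, 1634 (11.7%) were higher and 1603 (11.5%) lower at day 14 than at day 2, at a Benjamini-Hochberg false discovery rate (FDR) of at most 0.05. A change of more than 2-fold passed the test for 252 genes upward (1.81%) and 405 downward (2.91%). With library size alone, 157 genes (1.13%) passed as higher and 11439 (82.1%) as lower, against the split of 1634 and 1603 with TMM. All 1603 genes called lower with TMM were also called lower with library size alone, whereas of the 1634 called higher, 156 stayed higher, 948 were not called and 530 were called lower. Falls are thus falls on both scales. Rises are given on the TMM scale unless library size is named, and named rises of opposite sign with library size alone are listed at the end.

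In 2 libraries markers of tissue other than lens stood out, and results that rest on these libraries are given with and without them. In day 14 replicate 1 the 26 photoreceptor markers summed to 1552 TMM CPM against 141 and 258 in replicates 2 and 3, all 26 were highest in replicate 1, and the immediate-early genes summed to 2452 against 70.6 and 66.7. At day 2, replicate 3 had the highest sums of retina, pigment and muscle markers, with skeletal muscle markers at 33.1 against 2.43 and 2.53. Without day 14 replicate 1, 1503 genes were higher (10.8%) and 1689 lower (12.1%); 2690 of the 3237 genes called with all libraries were called again in the same direction. Without day 2 replicate 3, 940 genes were higher (6.74%) and 869 lower (6.23%), and 1791 of the 3237 genes called with all libraries were called again in the same direction. Without both libraries 901 were higher (6.46%) and 990 lower (7.10%). Of the 189 called genes named below, 52 lost the call when at least 1 of the 6 WT libraries was left out, and the omission that gave the highest FDR is named with each of them. Many of the 52 lost it in more than 1 omission, and those that lost it in 5 or all 6 are marked.

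**Figure D1:**
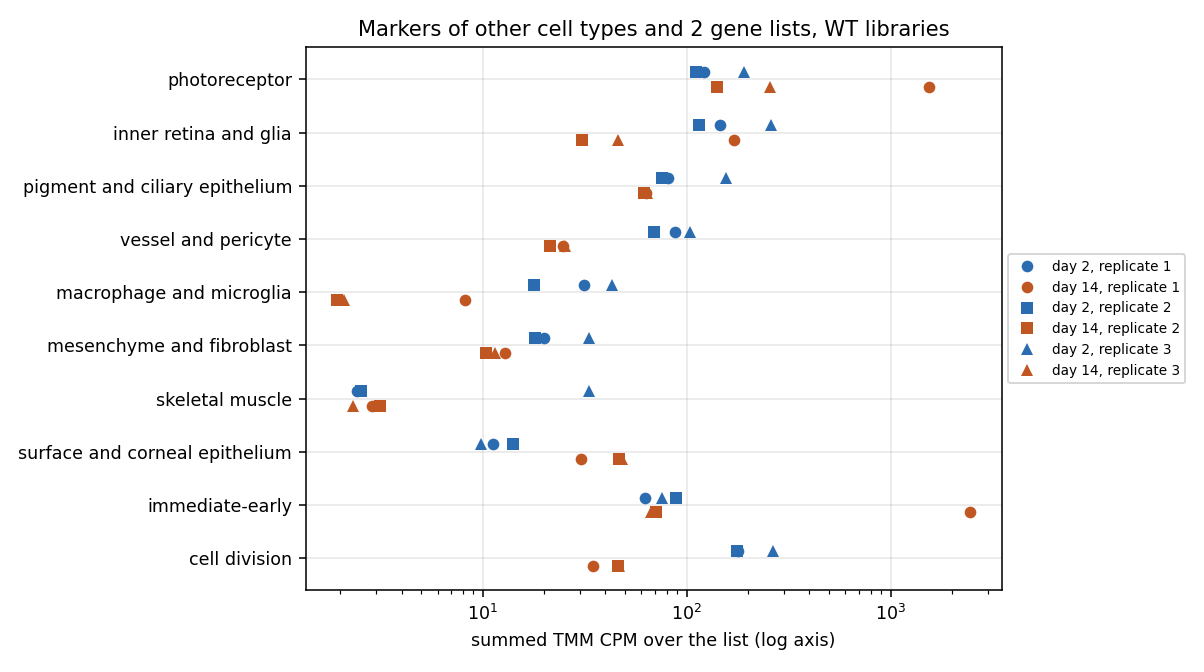
Summed TMM CPM (log axis) of marker lists of other tissues, of immediate-early genes and of cell division genes in each WT library, with 1 symbol per replicate (blue, day 2; orange, day 14). Photoreceptor and immediate-early sums of day 14 replicate 1 (1552 and 2452) lie far above those of the other 5 libraries, while the cell division, vessel and macrophage sums of all 3 day 14 libraries lie below those of all 3 day 2 libraries.

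Crystallins are the structural proteins that give the lens its refractive power, and their mRNAs took a larger share of the library at day 14. The 16 crystallin genes held 47.4%, 46.3% and 48.99% of all counts at day 2 and 62.8%, 70.6% and 64.4% at day 14. The ages did not overlap, and the mean rose from 47.6% ± 1.36 to 65.9% ± 4.15 (SD, n = 3 each), a difference of 18.4 percentage points (p = 0.1 by a two-sided exact permutation test, the lowest value that 3 against 3 libraries allow). The noncoding gene *Gm42418*, to which ribosomal RNA reads are commonly assigned, was the most counted gene at both ages, at 26.0% ± 5.29 and 18.6% ± 4.31 of counts, with overlap between the ages. With its counts left out, the crystallin share was 64.4% ± 2.72 at day 2 and 81.0% ± 0.982 at day 14.

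With TMM scaling, 15 of the 16 crystallin genes passed the test as higher at day 14, and *Crygn* did not (log2 fold change 0.57 ± 0.26 (SE), FDR = 0.12). All of the 6 β-crystallin genes rose (median log2 fold change 1.51), as did 7 of the 8 γ-crystallin genes (median 1.98) and both α-crystallin genes, against a background of 11.7% of genes called higher. These rises straddled the shift between the scalings. With library size alone *Cryab*, *Crybb2*, *Crygb*, *Crygc*, *Crygd* and *Crygs* were still called higher, *Crygn* was called lower, and the other 9 were not called in either direction.

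The rise was led by *Crybb2*, which encodes βB2-crystallin, a major soluble protein of the mature lens. Its level was 3703, 3699 and 2523 TMM CPM at day 2 and 85681, 88671 and 97486 at day 14, and every day 14 library was above every day 2 library. The log2 fold change was 4.78 ± 0.31 (SE) with an edgeR FDR of 5.9e-10, and it was 3.27 with library size alone. *Crygs*, encoding the γS-crystallin that fibres add late in development, followed, from 3169, 3818 and 2168 TMM CPM to 42319, 45805 and 50737 TMM CPM. Its log2 fold change was 3.92 ± 0.33 (edgeR FDR = 3.0e-08). Among the crystallin genes called higher, the smallest rise was that of *Crybb1*, which encodes the βB1-crystallin that is abundant in young fibres, at 36734, 40344 and 25032 TMM CPM at day 2 and 75271, 69426 and 62872 at day 14 (log2 fold change 1.02 ± 0.27, edgeR FDR = 0.0082).

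The promoters of these 3 crystallin genes are printed together with that of *Lgsn*, the lens gene with the largest rise (described with the fibre genes), because they hold the largest crystallin rises and the smallest rise that was called. Each runs from 250 bases before to 50 bases after the RefSeq start on GRCm38.p6, 5′ to 3′ along the gene's own strand, and capitals mark TGCTGA or its reverse complement TCAGCA, a part of the Maf recognition element that large Maf factors bind in crystallin promoters. *Crybb2* lies on the minus strand (chr5:113070068-113070367), *Crygs* on the minus strand (chr16:22811361-22811660), *Lgsn* on the plus strand (chr1:31176185-31176484) and *Crybb1* on the plus strand (chr5:112255570-112255869).
Crybb2: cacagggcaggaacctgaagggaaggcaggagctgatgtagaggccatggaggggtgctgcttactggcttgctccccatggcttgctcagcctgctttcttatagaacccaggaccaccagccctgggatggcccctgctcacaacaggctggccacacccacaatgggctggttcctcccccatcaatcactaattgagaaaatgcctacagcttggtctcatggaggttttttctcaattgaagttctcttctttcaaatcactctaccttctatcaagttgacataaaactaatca
Crygs: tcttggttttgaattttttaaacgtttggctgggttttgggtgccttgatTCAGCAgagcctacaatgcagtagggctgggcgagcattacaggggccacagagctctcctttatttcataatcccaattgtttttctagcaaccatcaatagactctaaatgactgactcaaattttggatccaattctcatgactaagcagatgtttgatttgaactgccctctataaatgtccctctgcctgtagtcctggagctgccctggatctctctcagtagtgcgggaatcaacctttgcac
Lgsn: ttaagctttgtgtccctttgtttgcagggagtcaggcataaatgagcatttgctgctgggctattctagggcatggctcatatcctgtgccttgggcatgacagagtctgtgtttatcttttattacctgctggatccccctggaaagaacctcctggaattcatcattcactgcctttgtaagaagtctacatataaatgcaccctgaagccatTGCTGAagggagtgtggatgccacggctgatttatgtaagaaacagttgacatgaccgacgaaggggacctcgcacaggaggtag
Crybb1: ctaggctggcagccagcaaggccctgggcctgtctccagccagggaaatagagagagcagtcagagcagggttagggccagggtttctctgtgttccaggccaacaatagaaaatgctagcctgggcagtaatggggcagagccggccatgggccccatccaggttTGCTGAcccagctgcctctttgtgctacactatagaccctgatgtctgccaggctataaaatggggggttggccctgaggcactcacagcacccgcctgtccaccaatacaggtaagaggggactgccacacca

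The motif was absent from the window of *Crybb2* and present once in each of the others, where it began 200 bases before the start in *Crygs*, 35 in *Lgsn* and 84 in *Crybb1*. Of the 15 crystallin genes with a promoter in the table, 10 (66.7%) held it on either strand, as did 6401 of all 32851 promoters (19.5%). Of the 3 crystallin genes printed, the one without the motif had the largest rise. A match of letters is a description of the window and not a binding site.

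Shares within the crystallin mRNA pool do not depend on the scaling. The γ-crystallins went from 25.0% ± 1.38 of crystallin counts at day 2 to 36.5% ± 2.26 at day 14, while the β-crystallins went from 44.96% ± 0.760 to 38.9% ± 0.277 and the α-crystallins from 30.1% ± 0.870 to 24.6% ± 2.47 (SD, n = 3 each). In each of the 3 families the ages did not overlap (exact permutation p = 0.1, the smallest possible).

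Within the pool 5 genes gained share without overlap between the ages. *Crybb2* went from 1.03%, 0.961% and 1.03% to 6.79%, 6.84% and 7.39% of crystallin counts, a ratio of means of 6.96. *Crygs* went from 0.882%, 0.991% and 0.885% to 3.35%, 3.53% and 3.85%, a ratio of 3.89. *Crygc* (5.63% to 10.4%), *Crygb* (9.38% to 14.98%) and *Cryab* (2.21% to 3.19%) gained 1.84, 1.60 and 1.44 times by their means. *Cryab* encodes αB-crystallin, a small heat shock protein that also acts outside the lens.

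The crystallins that lost share without overlap were *Crygn* (0.501% to 0.194%), *Crybb1* (10.3% to 5.36%), *Cryba4* (3.87% to 2.71%), *Crybb3* (6.62% to 4.64%), *Cryga* (4.38% to 3.23%), *Cryba2* (1.52% to 1.15%), *Cryaa* (27.9% to 21.4%) and *Cryba1* (21.6% to 18.02%). *Cryaa*, which encodes αA-crystallin, was the most counted crystallin gene at both ages, and the ratio of its counts to those of *Cryab* was 12.6, 11.9 and 13.4 at day 2 and 6.30, 6.40 and 7.72 at day 14. *Crygd*, *Cryge* and *Crygf* overlapped between the ages. These 3 genes are close copies of each other, and only uniquely aligned reads were counted, so that the split among them is uncertain.

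**Figure D2:**
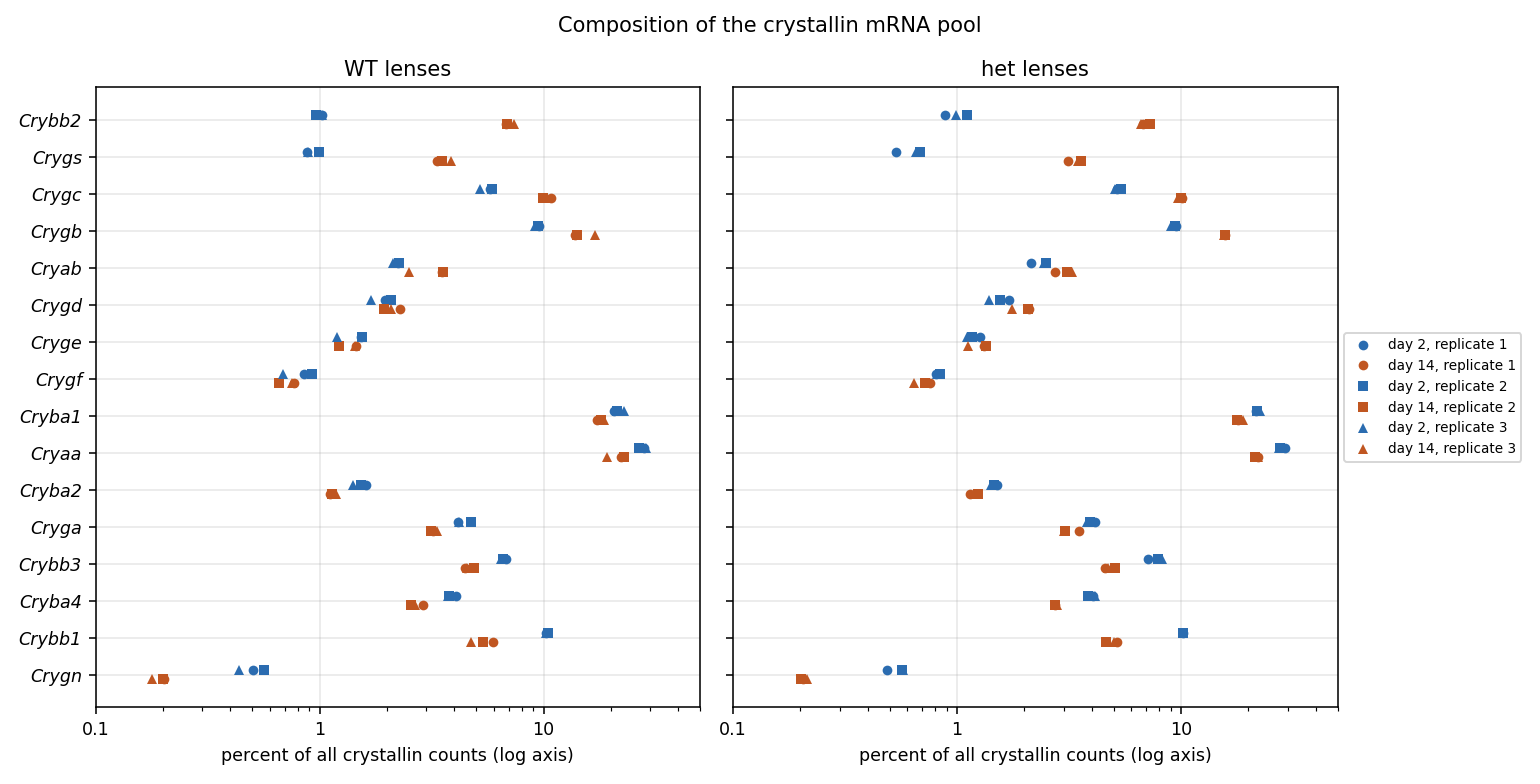
Share of each crystallin gene in all crystallin counts (percent, log axis) in the WT libraries on the left and the het libraries on the right, with 1 symbol per replicate and genes ordered by the WT ratio of day 14 to day 2. *Crybb2* and *Crygs* at the top moved from about 1% to 7.01% and 3.58% in WT, *Crybb1* and *Crygn* at the bottom lost share, and the het panel shows the same order at both ends.

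Per transcript length, in the deposited RPKM values, the order of the crystallin genes also changed. At day 2 *Cryaa* was first (111757 ± 6700 RPKM, SD, n = 3) and *Crygb* second (70304 ± 1326). At day 14 *Crygb* was first (155542 ± 18254) and *Cryaa* second (119086 ± 15790), and the lowest *Crygb* value (136497) lay just above the highest *Cryaa* value (135880). *Crybb2* moved from rank 16 of 16 (2381 ± 154 RPKM) to rank 8 (22945 ± 1528) and *Crygs* from rank 13 (6169 ± 290) to rank 6 (33316 ± 3093). RPKM divides by the library total, so these levels follow the library size scale.

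Of the 5 other small heat shock protein genes tested, 3 rose and 1 fell. *Hspb1* encodes HSP27, an actin-protecting chaperone, and was at 13.4, 19.3 and 5.33 TMM CPM at day 2 and 158, 267 and 169 at day 14 (log2 fold change 3.97 ± 0.44, edgeR FDR = 3.5e-06). *Hspb2* (1.03 ± 0.22) and *Hspb6* (0.95 ± 0.24) also rose with TMM, but with library size alone their log2 fold changes were -0.48 and -0.58. *Hspb8* fell (-1.08 ± 0.39, FDR = 0.048) at levels of 1.58 TMM CPM or less. Of the 7 tested members of the list, 5 were higher and 1 lower, beside 11.7% and 11.5% of all genes. *Hspb8* lost its call in all 6 omissions, with the highest FDR (0.19) without day 14 replicate 2.

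Genes of the fibre membrane and its cytoskeleton rose in 14 of 29 tested members and fell in 1 (median log2 fold change 0.83, against -0.07 for all genes), beside 11.7% and 11.5% of all genes; with library size alone 5 were higher and 17 lower, beside 1.13% and 82.1%. The largest rise was that of *Lgsn*, which encodes lengsin, a glutamine synthetase-like protein specific to the lens that associates with the filaments of maturing fibres. Its level was 11.1, 10.5 and 11.4 TMM CPM at day 2 and 1549, 2363 and 2021 at day 14. No value came near overlap, and the log2 fold change was 7.49 ± 0.39 (edgeR FDR = 1.5e-11) and 5.93 with library size alone. The gene lies on chromosome 1 at 31176401 to 31204725 of GRCm38.

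*Clic5*, an intracellular chloride channel protein of the fibre cytoskeleton, went from 6.22, 8.68 and 6.48 TMM CPM to 110, 103 and 117 (log2 fold change 3.95 ± 0.28, edgeR FDR = 2.0e-09). *Lctl*, a γ-klotho family protein, went from 58.1, 66.1 and 38.8 to 358, 440 and 439 TMM CPM (2.92 ± 0.28), and *Grifin*, a lens galectin-related protein, from 271, 284 and 177 to 1209, 1328 and 1505 (2.46 ± 0.25). These 3 genes were called higher on either scale. *Tmem114*, the lowest of the 14, had at most 4 counts in any day 2 library and 1.001 TMM CPM or less in all, and it entered the test through day 14, so that its call is no independent support.

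The main channel and filament genes of fibres rose less or did not pass the test. *Mip*, the water channel aquaporin 0 of fibre membranes, and *Bfsp1*, the filensin of the beaded filament, were singled out after their values were seen: with TMM their log2 fold changes were 1.66 ± 0.22 and 1.48 ± 0.34, and with library size alone 0.17 and 0.01, neither called. *Bfsp2*, the partner of filensin, had a similar value with a wider error (1.396 ± 0.66, FDR = 0.15). The gap junction gene *Gja3* (connexin 46) had a value of 0.22 ± 0.33 and did not pass. The tropomodulin *Tmod3* fell by 1.39 ± 0.29 on the log2 scale. *Lim2*, an abundant fibre membrane gene, was listed at 0 in every library, so the table does not inform on it.

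Genes tied to organelle loss and autophagy in fibres rose in 11 of 23 members, and none fell (median 0.65), beside 11.7% of all genes higher and 11.5% lower. Scaled by library size alone, 2 were higher and 14 lower, beside 1.13% and 82.1% of all genes. *Dnase2b*, the acid nuclease that degrades fibre nuclei, was at 58.1, 69.3 and 46.4 TMM CPM at day 2 and 210, 235 and 254 at day 14 (log2 fold change 2.01 ± 0.29, edgeR FDR = 4.4e-05). *Birc7*, which encodes the inhibitor of apoptosis livin, rose from 93.3, 118 and 70.3 to 556, 605 and 590 TMM CPM (2.64 ± 0.27), and *Alox15*, a lipoxygenase linked to organelle breakdown, by 2.75 ± 0.31. *Gabarapl1*, of the autophagosome, and *Pla2g16*, a phospholipase that acts on organelle membranes, rose by 1.88 ± 0.29 and 1.37 ± 0.23. *Fyco1*, an autophagy adaptor whose loss causes cataract, and *Casp6* did not pass (0.35 and -0.10). With library size alone *Pla2g16* stood at -0.12.

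Cell cycle genes fell together. Of the 30 genes of mitosis tested, 28 were lower and none higher at day 14 (median log2 fold change -2.45), beside a background of 11.5% of genes called lower. Their summed level was 179, 176 and 265 TMM CPM at day 2 and 34.6, 46.3 and 46.5 at day 14. *Top2a*, the topoisomerase of dividing cells, went from 27.4, 28.3 and 37.2 to 2.64, 5.27 and 3.93 TMM CPM (log2 fold change -2.95 ± 0.32, edgeR FDR = 1.1e-06). The kinases *Ttk* (-3.06 ± 0.78) and *Bub1b* (-2.96 ± 0.50), the spindle factor *Tpx2* (-3.00 ± 0.41) and the kinetochore motor *Cenpe* (-2.96 ± 0.33) fell alike, and *Prc1* (-0.51) and *Espl1* (-0.94) did not pass. With day 14 replicate 1 left out 26 of the 30 were lower, and 25 without day 2 replicate 3. Of these 30 genes, 28 were highest at day 2 in replicate 3, the day 2 library with the most retina markers, and the part of other tissue in the fall was not tested.

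DNA replication genes were lower in 24 of 34 members, and none was higher (median -1.29), beside 11.5% of all genes lower. *Uhrf1*, which maintains DNA methylation at the fork, fell by 3.05 ± 0.41, the helicase subunit *Mcm3* by 2.60 ± 0.36 and the polymerase *Pole* by 2.42 ± 0.54, and *Gins3* and *Cdt1* by 2.55 ± 0.77 and 2.20 ± 0.55 on the log2 scale. *Pcna* did not pass (-0.70 ± 0.26, FDR = 0.053). Without day 2 replicate 3, 14 of the 34 were called. Among regulators of cell cycle exit, the inhibitor *Cdkn2c* (p18) rose from 2.60, 2.40 and 1.75 to 7.60, 11.7 and 15.4 TMM CPM (log2 fold change 2.37 ± 0.31) while *Ccnd1*, cyclin D1, fell by 1.62 ± 0.27 and *Rbl1* (p107) by 1.52 ± 0.42. *Cdkn1c* (p57) and *Cdkn1b* (p27), the inhibitors best known from fibre differentiation, did not pass (-0.18 and -0.28), and with library size alone their log2 fold changes were -1.67 and -1.85. *Gins3* (FDR = 0.10) lost its call without day 14 replicate 2.

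Replication-dependent histone genes, whose mRNAs lack poly-A tails and are therefore poorly caught by a poly-A kit, were tested for 29 members, of which 2 were higher and 7 lower, beside 11.7% of all genes higher and 11.5% lower. *Hist1h1b* fell by 3.84 ± 0.55 and *Hist2h2ac* by 3.38 ± 0.67, *Hist1h2ab* by 3.67 ± 0.87 and *Hist1h2ae* by 2.77 ± 0.79. *Hist1h3b* had 5, 7 and 9 counts at day 2 and 0 in each day 14 library, where 3 counts would be at most 0.33 TMM CPM. It passed the filter on low counts through other libraries, so its call is no independent support. The rises were *Hist1h4h* (1.57 ± 0.26) and *Hist1h2bc* (1.35 ± 0.22), whose log2 fold changes were 0.08 and -0.14 with library size alone. *Hist1h2ae* (FDR = 0.084) lost its call without day 14 replicate 3. *Hist1h3b* (FDR = 0.067) lost its call without day 14 replicate 2.

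**Figure D3:**
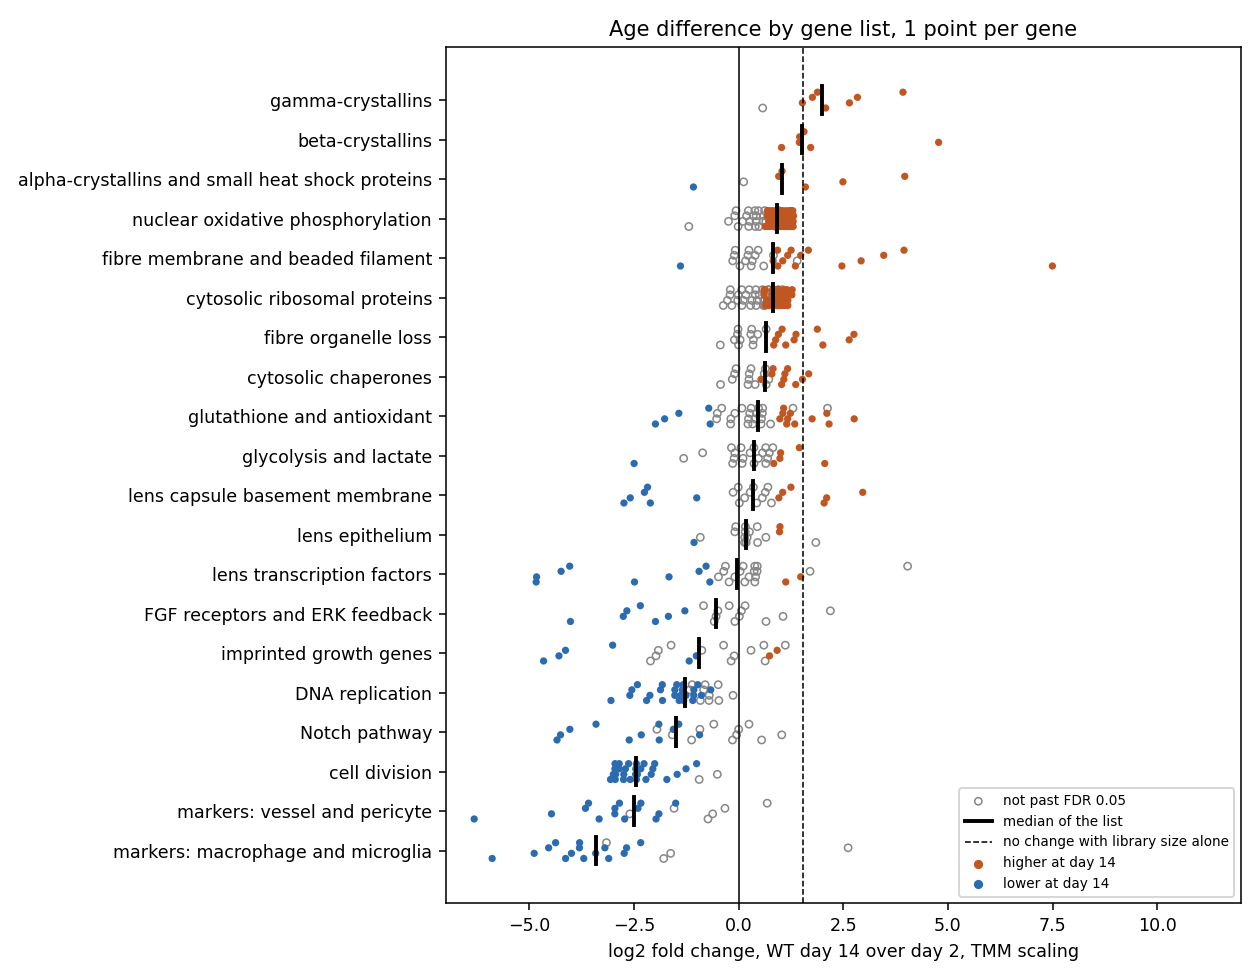
Log2 fold change of WT day 14 over day 2 (TMM scaling) for each tested gene of 20 lists, with filled points past FDR 0.05 (orange, higher; blue, lower), open points not past it and black bars at list medians. The dashed line at 1.55 is where no change would lie with library size alone: the filled points of the oxidative phosphorylation and ribosomal protein lists lie left of it, and those of the cell division and DNA replication lists lie left of 0.

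Transcription factors that specify the lens had a median log2 fold change near 0 (-0.03), with 2 of 28 tested higher and 9 lower, beside 11.7% of all genes higher and 11.5% lower. Of those known for roles in fibres and epithelium, these 4 did not pass: *Prox1* (0.38 ± 0.24), *Maf* (0.37 ± 0.29), *Sox1* (0.44 ± 0.37) and *Foxe3* (0.14 ± 0.44). All 4 were called lower with library size alone (-1.11, -1.12, -1.03 and -1.30). *Hsf4*, the heat shock factor required in postnatal fibres, rose from 62.9, 69.4 and 43.1 to 126, 127 and 129 TMM CPM (1.12 ± 0.22, edgeR FDR = 8.5e-04), though it stood at -0.38 with library size alone, and *Mafk* rose by 1.48 ± 0.41 at levels of at most 2.53 TMM CPM. *Pax6*, the master regulator of eye development, was singled out after its values were seen and fell from 50.6, 50.0 and 69.1 to 28.1, 35.5 and 41.5 TMM CPM (-0.69 ± 0.19, FDR = 0.013). *Mafk* (FDR = 0.063) and *Pax6* (FDR = 0.096) lost their calls without day 2 replicate 3.

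The largest falls of this list were in factors that the early retina and ciliary margin also express. *Six6* went from 9.20, 7.16 and 19.8 TMM CPM to 1.10, 0.0667 and 0.297 (-4.83 ± 0.73), *Mab21l2* from 8.73, 7.16 and 17.7 to 0.881, 0.133 and 0.297 (-4.84 ± 0.85), and *Lhx2* (-4.24 ± 0.77), *Tfap2b* (-4.04 ± 1.18) and *Zfhx3* (-2.49 ± 0.34) fell as well. All 5 were highest at day 2 in replicate 3. The inner retina markers summed to 146, 115 and 258 TMM CPM at day 2 and to 170, 30.8 and 46.1 at day 14. These sums overlapped between the ages, and the part of this tissue in the falls was not tested. Without day 2 replicate 3 the call of *Tfap2b* was lost (edgeR FDR = 0.10) and the other 4 held.

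Of 17 epithelial genes tested, 2 were higher and 1 lower (median 0.18), and with library size alone none was higher and 14 were lower, beside 11.7% and 11.5% of all genes with TMM and 82.1% lower with library size alone. These counts are near the shares of all genes. *Wls*, which carries Wnt ligands to the cell surface, and *Npnt*, the matrix protein nephronectin, rose by 0.98 ± 0.24 and 0.97 ± 0.28 with TMM and stood at -0.54 and -0.48 with library size alone. *Gja1*, the epithelial connexin 43, fell by 1.07 ± 0.28. *Cdh1*, E-cadherin, did not pass (0.14). *Npnt* (FDR = 0.10) and *Gja1* (FDR = 0.053) lost their calls without day 2 replicate 3.

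Imprinted growth genes were lower in 6 of 20 members and higher in 2 (median -0.95), beside 11.5% of all genes lower and 11.7% higher. *H19*, the noncoding RNA next to *Igf2*, went from 24.4, 22.6 and 17.9 TMM CPM to 1.32, 1.20 and 0.816 (log2 fold change -4.29 ± 0.34, edgeR FDR = 1.2e-08). *Igf2*, the fetal insulin-like growth factor, went from 30.3, 26.1 and 24.0 to 4.08, 0.400 and 0.594 (-4.14 ± 0.73). *Plagl1*, a zinc finger regulator of this gene network, fell by 4.66 ± 0.68, the receptor adaptor *Grb10* by 3.01 ± 0.28 and *Peg3* by 1.18 ± 0.23 on the log2 scale. The rises were *Slc38a4* (0.92 ± 0.26) and *Ndn* (0.74 ± 0.20), which stood at -0.54 and -0.81 with library size alone. Of fetal RNA-binding and chromatin genes 4 of 8 were lower: *Hmga1* (-1.62 ± 0.43), *Hmga2* (-1.46 ± 0.30), *Igf2bp1* (-1.44 ± 0.30) and *Arid3a* (-0.96 ± 0.30). *Slc38a4* (FDR = 0.092) lost its call without day 2 replicate 3. *Hmga1* (FDR = 0.053) lost its call without day 14 replicate 3. *Arid3a* (FDR = 0.11) lost its call without day 14 replicate 2.

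The Notch pathway was lower in 11 of 22 members and higher in none (median -1.498), beside 11.5% of all genes lower, with *Heyl* (-4.34 ± 0.71), *Nrarp* (-4.26 ± 0.61), *Mfng* (-4.03 ± 0.77), *Dll1* (-3.41 ± 0.74) and *Hes6* (-2.62 ± 0.42) at the head. *Heyl*, a Notch target of vessels and neurons, was at 2.26, 1.72 and 4.34 TMM CPM at day 2 and 0.110, 0.267 and 0 at day 14. In the FGF and ERK feedback list 7 of 19 were lower and none higher, beside the same 11.5%. The falls included *Fgf9* (-4.02 ± 0.95), *Etv4* (-2.76 ± 0.92), *Il17rd* (-2.67 ± 0.78), *Fgf13* (-2.35 ± 0.67) and *Spry4* (-1.99 ± 0.69), while the receptors that drive fibre differentiation did not pass, *Fgfr1* at 0.01 ± 0.25, *Fgfr2* at 0.65 ± 0.28 and *Fgfr3* at -0.09 ± 0.30. With library size alone all 3 receptors were called lower, *Fgfr2* at -0.85. All 5 of these falling genes were highest at day 2 in replicate 3. Vessel marker sums fell without overlap between the ages while inner retina sums overlapped, and the part of either tissue was not tested. *Etv4* (FDR = 0.15) and *Il17rd* (FDR = 0.080) lost their calls without day 14 replicate 2. *Fgf13* (FDR = 0.091) and *Spry4* (FDR = 0.17) lost their calls without day 2 replicate 3.

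Many nuclear genes of energy supply and of protein synthesis rose relative to the typical gene by small amounts. Of 79 nuclear genes of oxidative phosphorylation, 55 were higher and none lower (median 0.91), and of 80 cytosolic ribosomal protein genes, 46 were higher and none lower (median 0.81), beside 11.7% of all genes higher. With library size alone none was higher in either list and 46 and 53 were lower, beside 82.1% of all genes. *Ndufa13*, of complex I, went from 121, 117 and 86.6 TMM CPM to 265, 245 and 289 (1.30 ± 0.21, edgeR FDR = 1.5e-04). *Ndufa1* (1.31 ± 0.26), *Ndufa5* (1.30 ± 0.23), *Cox6c* (1.29 ± 0.25) and *Ndufb8* (1.29 ± 0.26) were close to it. Among ribosomal proteins *Rpl41* (1.27 ± 0.22), *Rpl35* (1.17 ± 0.22), *Rps3* (1.17 ± 0.23) and *Rpl35a* (1.15 ± 0.25) led, apart from *Rps12* (1.28 ± 0.46), which was at most 1.54 TMM CPM and shares sequence with its copies, so that its level is uncertain. Without day 2 replicate 3 the counts were 40 and 19, beside 6.74% of all genes higher. Of 8 mitochondrially encoded genes, *mt-Nd2* alone was called (0.69 ± 0.25, higher), and with library size alone it was called lower (-0.83). *Rps12* lost its call in all 6 omissions and *mt-Nd2* in 5 of 6, each with the highest FDR (0.16 and 0.17) without day 2 replicate 3.

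Glycolysis, on which the fibre core depends, was higher in 5 of 25 genes and lower in 1 with TMM, and higher in 1 and lower in 19 with library size alone, where 82.1% of all genes were lower (with TMM 11.7% were higher). The aldolase *Aldoc* went from 82.0, 79.1 and 56.5 to 281, 333 and 290 TMM CPM (2.06 ± 0.24), *Eno3* rose by 1.45 ± 0.29, the lactate carrier *Slc16a3* by 1.001 ± 0.29, *Pgk1* by 0.98 ± 0.26 and *Tpi1* by 0.84 ± 0.25. With library size alone *Aldoc* was still higher (0.55) and the other 4 stood between -0.73 and -0.07. *Ldhb* fell by 2.499 ± 0.61, and the glucose carrier *Slc2a1* (0.10) and *Ldha* (0.65) did not pass. Several glycolytic genes, *Pgk1* among them, share sequence with pseudogene copies, and their levels are uncertain. *Slc16a3* (FDR = 0.063) lost its call without day 14 replicate 2. *Tpi1* (FDR = 0.061) lost its call without day 2 replicate 1.

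Of 38 genes of glutathione metabolism and antioxidant defence, 11 were higher and 5 lower (median 0.45), beside 11.7% of all genes higher and 11.5% lower, and with library size alone 2 were higher and 25 lower (82.1% of all genes). *Hmox1*, heme oxygenase 1, was high at both ages, at 399, 416 and 242 TMM CPM at day 2 and 2197, 2858 and 2098 at day 14 (2.76 ± 0.33, edgeR FDR = 4.3e-06; 1.28 with library size alone). *Gclc*, the catalytic subunit of the enzyme that limits glutathione synthesis, went from 10.8, 12.9 and 6.87 to 48.7, 39.2 and 43.7 TMM CPM (2.10 ± 0.31; 0.62 with library size alone). The aldose reductase *Akr1b3* rose by 2.16 ± 0.29, the peroxiredoxins *Prdx5* by 1.75 ± 0.23 and *Prdx1* by 1.34 ± 0.27, the last standing at -0.19 with library size alone. The falls were *Txnip* (-1.99 ± 0.58), *Glrx* (-1.77 ± 0.47), *Gpx3* (-1.43 ± 0.46), *Txnrd1* (-0.72 ± 0.26) and *Nfe2l2* (-0.68 ± 0.23), of which 2 were called without day 14 replicate 1. *Txnip* (FDR = 0.10) lost its call without day 14 replicate 2. *Gpx3* and *Txnrd1* each lost the call in 5 of 6 omissions, with the highest FDR (0.097 and 0.16) without day 2 replicate 3. *Nfe2l2* lost its call in 5 of 6 omissions, with the highest FDR (0.12) without day 14 replicate 1.

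Cytosolic chaperones were higher in 10 of 23 members and lower in none (median 0.64), beside 11.7% of all genes higher, and with library size alone none was higher and 15 were lower, beside 82.1%. *Dnajb2* rose by 1.67 ± 0.24 and *Dnajb1*, the HSP40 partner of HSP70, from 142, 146 and 99.5 to 424, 382 and 309 TMM CPM (1.52 ± 0.31). *Bag3* (1.36 ± 0.30), *Hspe1* (1.17 ± 0.24) and the chaperonin subunit *Cct5* (1.10 ± 0.34) rose on the TMM scale and stood at -0.18, -0.33 and -0.42 with library size alone. In the endoplasmic reticulum list 4 of 24 rose, *Chac1* (3.75 ± 0.86), *Dnajb9* (1.56 ± 0.36), *Atf4* (1.26 ± 0.21) and *Herpud1* (1.11 ± 0.30), beside 11.7% of all genes higher, and with library size alone 1 rose and 18 fell, beside 82.1% of all genes lower. *Chac1* was at 7.82 TMM CPM in day 14 replicate 1 against 0.601 and 1.34 in the others, and *Dnajb9* at 19.4 against 5.47 and 5.12; without that library *Dnajb9* lost its call (0.67, edgeR FDR = 0.057). *Hspa5*, BiP, followed the same library (452 against 126 and 68.6) and did not pass. In cholesterol synthesis, *Dhcr7* rose by 2.45 ± 0.25 and *Srebf2*, which regulates the pathway, fell by 0.86 on the log2 scale; of the 23 genes tested, 1 was higher and 3 were lower, beside 11.7% and 11.5% of all genes. *Cct5* (FDR = 0.10) and *Herpud1* (FDR = 0.051) lost their calls without day 2 replicate 3. *Srebf2* (FDR = 0.057) lost its call without day 14 replicate 3.

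Of 29 transport genes, 6 were higher and 5 lower (1 and 21 with library size alone), shares not far from those of all genes (11.7% higher and 11.5% lower; 82.1% lower with library size alone). *Aqp5*, a water channel of the lens and of secretory epithelia, went from 0.682, 0.270 and 0.490 TMM CPM to 12.2, 24.9 and 24.3 (log2 fold change 5.43 ± 0.39, edgeR FDR = 2.3e-09) and was 3.89 with library size alone. *Slc4a4*, a bicarbonate carrier, and *Atp1b3*, a subunit of the sodium pump, rose by 1.25 ± 0.36 and 1.03 ± 0.22 with TMM and stood at -0.26 and -0.49 with library size alone. The cation channel gene *Trpv4* rose by 2.34 ± 0.74. Its call was lost in 4 of 6 omissions, with the highest edgeR FDR (0.11) without day 2 replicate 3. It had 5, 6 and 3 counts at day 2 and 11, 16 and 6 at day 14. It passed the filter on low counts through libraries other than those of day 2, so its call is no independent support. The falls included *Fxyd6* (-2.73 ± 0.51), *Atp2b4* (-2.68 ± 0.79) and *Slc12a7* (-1.70 ± 0.50). *Slc4a4* (FDR = 0.076) lost its call without day 2 replicate 3. *Atp2b4* (FDR = 0.089) and *Slc12a7* (FDR = 0.086) lost their calls without day 14 replicate 2.

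The capsule is the thick basement membrane that encloses the lens, and its genes changed in opposite directions, with 6 of 23 higher and 6 lower, beside 11.7% and 11.5% of all genes (2 and 17 with library size alone, where 82.1% of all genes were lower). The collagen IV chains of mature basement membranes rose, *Col4a3* from 7.80, 10.8 and 5.50 to 51.8, 65.0 and 71.4 TMM CPM (2.96 ± 0.31, edgeR FDR = 8.5e-07) and *Col4a4* from 19.7, 25.4 and 13.9 to 81.2, 83.3 and 88.7 (2.10 ± 0.27), and both were also called higher with library size alone. *Lama2* rose by 2.04 ± 0.34, *Col4a1* by 1.25 ± 0.41 and *Sparc* by 1.05 ± 0.22, the last pair at -0.23 and -0.47 with library size alone. Those that fell are expressed by vessels and mesenchyme as well, *Col18a1* (-2.74 ± 0.33), *Col15a1* (-2.59 ± 0.61), *Nid2* (-2.25 ± 0.61), the fibronectin gene *Fn1* (-2.18 ± 0.55) and *Agrn* (-2.11 ± 0.33). Vessel markers fell beside them, and their part was not tested. *Col4a1* lost its call in 5 of 6 omissions, with the highest FDR (0.15) without day 2 replicate 3. *Nid2* (FDR = 0.054) lost its call without day 14 replicate 2.

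Markers of vessels and of macrophages fell. Of 20 vessel and pericyte markers, 14 were lower and none higher, beside 11.5% of all genes lower (median -2.504, or -2.37 with *Sox18* set at its floor of 3 counts), and their sum went from 87.7, 68.9 and 103 to 24.7, 21.4 and 25.3 TMM CPM. The endothelial receptor *Kdr* went from 8.09, 7.29 and 15.8 to 2.53, 0.334 and 0 (-3.66 ± 0.89), and *Eng* (-3.59 ± 0.52), *Cdh5* (-3.33 ± 0.69) and the pericyte channel gene *Kcnj8* (-4.47 ± 1.16) fell as well. *Sox18* had 14, 11 and 9 counts at day 2 and 0 in each day 14 library, and *Kcnj8* had 0, 1 and 0 counts at day 14. Both passed the filter on low counts through other libraries, so their calls are no independent support. *Pecam1* did not pass (-0.33 ± 0.72), being at 5.07 TMM CPM in day 14 replicate 1 against 0.534 and 0.223.

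Of 19 macrophage and microglia markers, 15 were lower and none higher, beside the same 11.5% (median -3.42, or -3.20 with *Adgre1* set at its floor), with sums of 31.5, 17.8 and 43.1 TMM CPM at day 2 and 8.15, 1.94 and 2.08 at day 14. *Pf4* went from 10.2, 3.75 and 12.6 to 0.331, 0.334 and 0.223 TMM CPM (-4.89 ± 0.50, edgeR FDR = 7.8e-07), *Mrc1* (-4.38 ± 0.77) and *Aif1* (-4.54 ± 0.93) fell likewise, and so did the complement gene *C1qc* (-4.14 ± 0.81). *Adgre1* had 3, 3 and 20 counts at day 2 and 0 at day 14. In the day 14 libraries *Aif1* had 0, 0 and 1 counts, *Mrc1* 1, 1 and 2 and *C1qc* 1, 2 and 0. Such genes passed the filter on low counts through other libraries, so their calls are no independent support. Without both libraries that stood apart, 12 vessel and 12 macrophage markers were lower, beside 7.10% of all genes. Among them were *Pecam1* and *Ctss*, which were not called with all libraries. The amount of vessel tissue left on a dissected lens at each age is not recorded. *Adgre1* (FDR = 0.14) lost its call without day 2 replicate 3.

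Tissue next to the lens differed between single libraries. Photoreceptor markers were higher in 13 of 26 and lower in none (median 3.26), beside 11.7% and 11.5% of all genes, and in 6 and 1 with library size alone, beside 1.13% and 82.1%. Among them were *Gnat1* (9.91 ± 1.71), *Cnga1* (5.73 ± 1.51), *Guca1b* (5.16 ± 1.25) and *Rcvrn* (5.02 ± 1.24). *Gnat1*, the transducin subunit of rods, was at 0.0426, 0 and 0.175 TMM CPM at day 2 and at 196, 5.40 and 27.8 TMM CPM at day 14, so it was above day 2 in every day 14 library and far higher in replicate 1 than in the others. It had 1, 0 and 5 counts at day 2 and so entered the test through day 14, and its log2 fold change was 7.72 without day 14 replicate 1. Without day 14 replicate 1, 5 of the 26 were higher and 1 lower, beside 10.8% and 12.1% of all genes. Inner retina markers were lower in 4 of 22, beside 11.5% of all genes: *Pou4f1* (-3.29 ± 0.57), *Slc1a3* (-3.17 ± 0.91), *Apoe* (-1.98 ± 0.53) and *Trpm1* (-1.24 ± 0.41); without day 14 replicate 1, 11 were, beside 12.1%. *Cnga1* (FDR = 0.089) and *Rcvrn* (FDR = 0.054) lost their calls without day 14 replicate 1. *Slc1a3* (FDR = 0.088) lost its call without day 14 replicate 2. *Apoe* (FDR = 0.073) and *Trpm1* (FDR = 0.15) lost their calls without day 2 replicate 3.

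Pigment and ciliary markers were lower in 7 of 15, beside 11.5% of all genes. *Pmel*, a melanosome protein, went from 9.07, 13.0 and 16.4 to 1.10, 1.33 and 1.11 TMM CPM (-3.42 ± 0.52), *Otx2* (-3.84 ± 1.11), *Mlana* (-3.41 ± 0.84) and *Dct* (-2.18 ± 0.43) fell, and *Tyr* had 11, 15 and 20 counts at day 2 and 0 at day 14. *Tyr* passed the filter on low counts through other libraries than those of day 14, so its call is no independent support. Mesenchyme markers were lower in 8 of 12, beside the same 11.5%, with *Postn* (-2.96 ± 0.78), *Col3a1* (-2.94 ± 0.83), *Dcn* (-2.65 ± 0.70), *Col1a1* (-2.16 ± 0.49) and *Col5a1* (-2.10 ± 0.54), and without day 2 replicate 3 in 3, beside 6.23%. Of 12 surface epithelium markers only 4 passed the filter on low counts, and the defining genes *Krt5*, *Krt12*, *Krt14* and *Trp63* did not. Those called higher were *Perp* (1.89 ± 0.25), *Aldh3a1* (4.71 ± 0.74) and *Krt4* (3.66 ± 0.65), of which the last pair, at no more than 1.63 TMM CPM, had at most 4 counts in any day 2 library and entered the test through day 14. None of the 7 muscle or 5 erythroid genes tested was called, nor any of 9 genes tested from a list of mostly non-polyadenylated RNAs, which also holds a protein-coding gene. *Postn* (FDR = 0.053), *Col3a1* (FDR = 0.088) and *Dcn* (FDR = 0.050) lost their calls without day 2 replicate 3. *Col5a1* (FDR = 0.055) lost its call without day 14 replicate 2.

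Immediate-early genes, which respond within minutes to handling, injury or growth factors, were called higher in 7 of 19 with all libraries, beside 11.7% of all genes (4 with library size alone, beside 1.13%), and in none without day 14 replicate 1 or without day 2 replicate 3. *Egr1* was at 0.809, 3.92 and 0.701 TMM CPM at day 2 and at 288, 1.20 and 1.56 at day 14. *Atf3* (7.87 ± 2.00), *Junb* (6.07 ± 1.89), *Nr4a1* (4.11 ± 1.26) and *Zfp36* (3.27 ± 1.06) were also highest in day 14 replicate 1. The omission of this library gave the highest edgeR FDR for *Egr1*, *Atf3*, *Junb*, *Nr4a1* and *Zfp36* (0.82, 0.66, 0.13, 0.97 and 0.58), and 2 of the 19 genes were then called lower. The ages of the remaining libraries overlapped for *Egr1*.

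The 29 genes named for the largest changes that also held without day 14 replicate 1 included several outside these lists. Among the rises, *Abcc6*, a transporter whose loss causes ectopic mineralisation, went from 0.298, 0.169 and 0.280 TMM CPM to 19.4, 24.1 and 22.4 (log2 fold change 6.45 ± 0.30, edgeR FDR = 2.6e-12). It had 7, 5 and 8 counts at day 2 and entered the test through day 14, as *Gnat1* did, so its call is no independent support. *Ppp1r15a* encodes GADD34, the phosphatase subunit that restores translation after stress, and went from 13.0, 14.4 and 9.71 to 288, 366 and 334 TMM CPM (4.73 ± 0.35). *Acta2*, smooth muscle actin, went from 11.7, 11.04 and 8.16 to 144, 175 and 171 TMM CPM (3.99 ± 0.27). Smooth muscle actin is also a pericyte gene, and which cells the transcript came from was not tested. *Tcp11* went from 27.9, 30.2 and 20.5 to 337, 434 and 427 TMM CPM (3.93 ± 0.28). *Srd5a2*, a steroid reductase (4.20 ± 0.27), *Susd3* (4.22 ± 0.30) and the antigen-presentation gene *H2-Eb1* (3.92 ± 0.34) completed the rises beside *Gnat1*, *Lgsn*, *Aqp5*, *Crybb2*, *Hspb1*, *Clic5* and *Crygs*. All 14 were called higher on either scale.

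Among the falls, *Sox11*, a factor of neural and early lens progenitors, went from 12.4, 12.6 and 31.0 to 0.331, 0.467 and 0.371 TMM CPM (-5.54 ± 0.58, edgeR FDR = 3.0e-06), and *Fgf15*, an FGF of the embryonic retina, from 5.20, 10.2 and 15.6 to 0.441, 0 and 0 (-6.50 ± 1.22). *Fabp7*, a radial glia fatty acid binding protein (-5.16 ± 0.96), the noncoding RNA *Miat* (-4.66 ± 0.83), the fibrillin *Fbn2* (-4.57 ± 1.13), *Penk* (-3.92 ± 1.17) and the endothelial GTPase *Rhoj* (-3.46 ± 0.86) joined *Six6*, *Mab21l2*, *H19*, *Igf2*, *Tfap2b*, *Otx2*, *Kdr* and *Pmel*. Several of these falls were larger without day 14 replicate 1. Among them, the log2 fold change was then -10.96 for *Fgf15*, -8.31 for *Tfap2b*, -7.18 for *Miat*, -6.09 for *Otx2*, -5.85 for *Kdr* and -5.75 for *Igf2*. These values rest on 0 to 11 counts in each of the 2 other day 14 libraries. Of these 15 genes, 13 were highest at day 2 in replicate 3, with *H19* and *Igf2* the exceptions. Without that library *Tfap2b*, *Penk* and *Otx2* lost their calls (edgeR FDR = 0.10, 0.088 and 0.11), and the other 12 kept theirs. *Penk* (FDR = 0.096) lost its call without day 14 replicate 2. *Rhoj* (FDR = 0.052) lost its call without day 14 replicate 3.

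**Figure D4:**
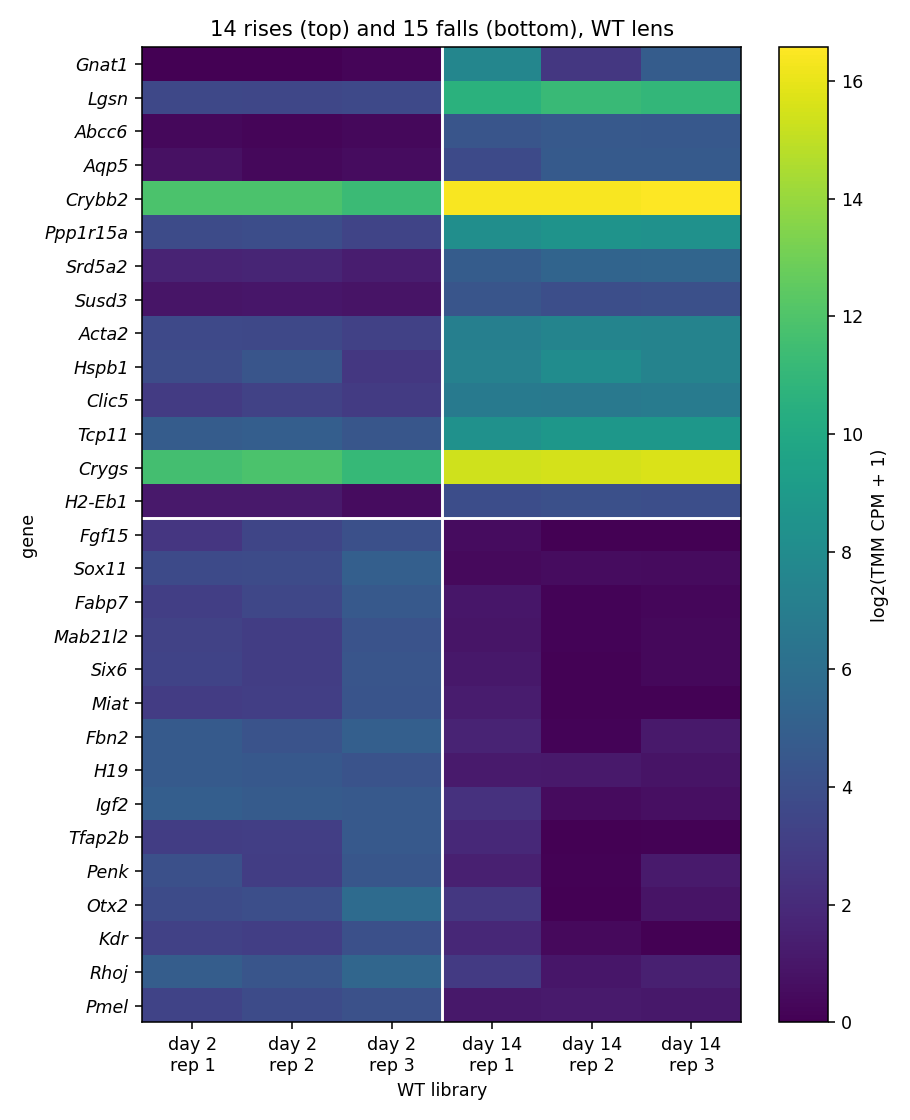
Level of the 14 rises and 15 falls named for their size in each WT library as log2(TMM CPM + 1), with rises above the white horizontal line and day 2 left of the vertical line. *Crybb2* and *Crygs* are the brightest rows at day 14, *Gnat1* is brightest in day 14 replicate 1, and most falls are brightest in day 2 replicate 3.

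The het lenses gave the same ages in libraries outside the WT contrast, with the mutant allele of each line present. Both contrasts came from 1 fit and share its gene filter, scaling and estimate of the spread. Between het day 14 and het day 2, 1395 genes were higher (10%) and 1185 lower (8.50%). Of the WT calls, 1990 were also called in het in the same direction, 61.5% of the WT calls and 77.1% of the het calls, and 1 gene was called in opposite directions. Of the 1634 WT rises 1614 had a het log2 fold change above 0, and of the 1603 WT falls 1580 had one below 0. No gene passed the test of the difference between the WT and the het age effect (0 of 13938 by edgeR's quasi-likelihood test, smallest FDR 0.073; 352 at an unadjusted p under 0.05, 18 by the edgeR likelihood-ratio test, and 88 when every gene with at least 1 count was tested). Line and age change together in het as well.

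The shares of the crystallin pool were also measured in het, with no test of the difference from WT. *Crybb2* went from 0.882%, 1.11% and 0.994% of crystallin counts to 6.78%, 7.26% and 6.66%, *Crygs* from 0.535%, 0.683% and 0.655% to 3.14%, 3.57% and 3.47%, and *Crybb1* from 10.2%, 10.2% and 10.3% to 5.19%, 4.64% and 5.05%. The γ-crystallins together went from 23.2% ± 0.623 to 36.3% ± 0.812 (SD, n = 3 each). *Lgsn* went from 5.67, 10.2 and 3.49 TMM CPM to 1370, 1801 and 1928 in het (log2 fold change 8.04), and *Clic5* from 1.58, 3.51 and 1.496 to 92.6, 98.9 and 118 (5.56).

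For markers of pigmented tissue and mesenchyme the het counts differed from those of WT, and among the 13938 genes tested none passed the test of that difference. Pigment markers, lower in 7 of 15 in WT, were lower in 1 and higher in 3 in het, beside 8.50% and 10% of all genes, and their sum overlapped between the het ages (92.8, 95.7 and 145 TMM CPM at day 2 and 150, 104 and 85.4 at day 14). *Pmel* had a het log2 fold change of -0.82 (FDR = 0.22) and *Tyr* of -0.75 (FDR = 0.48). Mesenchyme markers were lower in 1 of 12 and higher in 1, near those shares. None of the immediate-early genes was called in het. Cell division genes were lower in 29 of 30, vessel markers in 10 of 20 and macrophage markers in 12 of 19, beside 8.50% of all genes, and oxidative phosphorylation genes were higher in 46 of 79, beside 10%. Photoreceptor markers were higher in 9 of 26, with sums of 1140, 611 and 296 TMM CPM at day 14 against 128 to 212 at day 2.

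**Figure D5:**
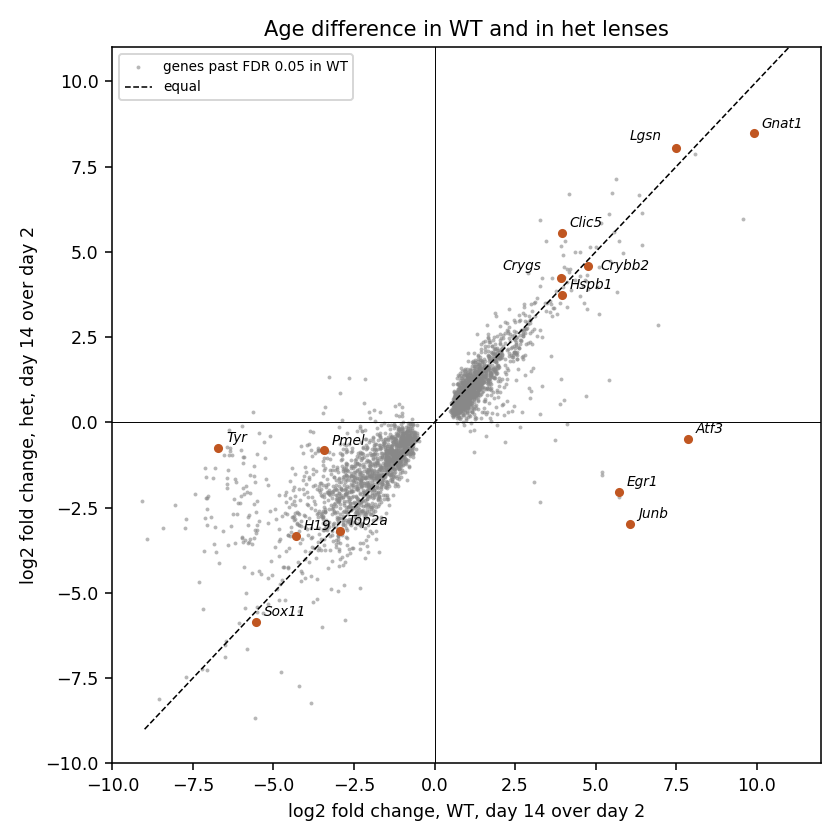
Log2 fold change of day 14 over day 2 in WT lenses (x axis) and in het lenses (y axis) for each gene past FDR 0.05 in WT, with the dashed line where both are equal and some named genes in orange. *Lgsn* (7.49 and 8.04) and *Crybb2* (4.78 and 4.58) lie close to the line, while *Atf3*, *Egr1* and *Junb*, high in 1 WT library, are below 0 in het. Genes with no counts in any WT day 14 library, such as *Tyr*, are placed by the fit's prior count.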

How the data were processed

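Total RNA of whole lenses was made into poly-A-selected libraries and sequenced as 50-base single reads on an Illumina HiSeq 2500. Per the submitters' processing notes and the study's methods, the authors called bases with CASAVA 1.8, aligned reads with STAR 2.0.4b to the mouse genome (GRCm38, Ensembl 76 annotation) and counted uniquely aligned reads per gene with featureCounts 1.4.5, and the strand setting was not given in the sources used here. The deposited count table holds these raw counts as whole numbers (41422 lines, of which 40800 are Ensembl genes), and no column of it was left unused. The deposited RPKM table holds the authors' RPKM values, read counts normalized to gene length and library total, used here only to order crystallin genes.

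The counts were tested with edgeR 4.0.16 (limma 3.58.1, R 4.3.3): genes were kept by filterByExpr, scaled by TMM, and fitted with a robust quasi-likelihood model of 6 group means over all 18 libraries, and an FDR (Benjamini-Hochberg) of at most 0.05 was called. Changes of more than 2-fold were tested with glmTreat. SE is the standard error of the log2 fold change. Shares of counts were compared with exact permutation tests. The fit was tested on simulated data. DESeq2 1.42.0, other scalings, filters and left-out libraries were tried as alternatives. Intervals of single counts are not given, and a level at which a gene had 3 counts served as the floor. With 3 libraries per group, the p-values measure the spread between libraries, which may be technical in part.

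The 15 largest rises and falls were named among genes with a group mean of at least 10 TMM CPM that were called with and without day 14 replicate 1 and did not overlap between the ages. In each list up to 5 called members per direction were named, with other members named for their role as stated; some genes that the rule selects are not reported here. The comparison and the 36 gene lists were chosen with earlier results of these data known. Promoter sequences are from RefSeq (GRCm38.p6).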

Additional observations from a re-analysis of the deposited data

How the results depend on the processing

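When scaled by library size alone, 11596 genes were called in WT (157 higher and 11439 lower), 7245 changed more than 2-fold and 11811 were called in het. Of the 212 genes named, 51 then had the opposite sign and were called on at least 1 of the scales, with log2 fold changes of *Atf4* -0.27, *Atp1b3* -0.49, *Bag3* -0.18, *Cct5* -0.42, *Cdh1* -1.31, *Col4a1* -0.23, *Cox6c* -0.26, *Cryba4* -0.05, *Crybb1* -0.47, *Crybb3* -0.038, *Crygn* -0.90, *Dnajb9* -0.006, *Eno3* -0.068, *Fgfr1* -1.52, *Fgfr2* -0.85, *Foxe3* -1.30, *Fyco1* -1.20, *Gja3* -1.29, *Herpud1* -0.42, *Hist1h2bc* -0.14, *Hsf4* -0.38, *Hspb2* -0.48, *Hspb6* -0.58, *Hspe1* -0.33, *Ldha* -0.96, *Maf* -1.12, *Mafk* -0.024, *Ndn* -0.81, *Ndufa1* -0.19, *Ndufa13* -0.22, *Ndufa5* -0.23, *Ndufb8* -0.24, *Npnt* -0.48, *Pgk1* -0.57, *Pla2g16* -0.12, *Prdx1* -0.19, *Prox1* -1.11, *Rpl35* -0.37, *Rpl35a* -0.37, *Rpl41* -0.25, *Rps12* -0.22, *Rps3* -0.35, *Slc16a3* -0.57, *Slc2a1* -1.46, *Slc38a4* -0.54, *Slc4a4* -0.26, *Sox1* -1.03, *Sparc* -0.47, *Tpi1* -0.73, *Wls* -0.54 and *mt-Nd2* -0.83. List medians that turned below 0 were those of alpha-crystallins and small heat shock proteins -0.48, fibre membrane and beaded filament -0.65, fibre organelle loss -0.94, lens epithelium -1.31, glycolysis and lactate -1.19, mitochondrial genome -1.32, glutathione and antioxidant -1.10, cholesterol synthesis -1.48, lens capsule basement membrane -1.12, cytosolic chaperones -0.90, ER chaperones and unfolded protein response -1.26, nuclear oxidative phosphorylation -0.63 and cytosolic ribosomal proteins -0.73, and of 2 lists with no called gene, the erythroid markers -1.59 and the RNAs without poly-A tails -0.95. DESeq2 size factors, and TMM without the crystallin genes and *Gm42418*, turned the sign of no called gene among them, and under the latter the median of the transcription factor list moved from -0.03 to 0.001.

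Without 1 library at a time, the number of called genes was 1809 to 3192, of higher genes 940 to 1503, of lower genes 869 to 1689 and of those over 2-fold 365 to 786, the lowest values each coming from the omission of day 2 replicate 3, and the difference in crystallin share was 16.01 to 19.9 percentage points. Omissions of day 2 replicates 1, 2 and 3 ended the calls of 18, 13 and 41 named genes, and those of day 14 replicates 1, 2 and 3 of 21, 31 and 28. Over the 6 omissions the log2 fold changes of *Egr1*, *Junb* and *Zfp36* ran from -0.41 to 6.98, from -2.44 to 6.86 and from -0.30 to 3.82 and the immediate-early median from -0.41 to 3.47, each lowest without day 14 replicate 1. The median of the transcription factor list ran from -0.34 to 0.04 and that of ion transport from -0.40 to 0.14. With both day 2 replicate 3 and day 14 replicate 1 left out, an alternative chosen after seeing the data, 1891 genes were called (901 higher and 990 lower), and the values of *Egr1*, *Junb*, *Zfp36* and the immediate-early median were -0.80, -2.60, -0.46 and -0.69.

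Testing every gene with at least 1 count gave 1045 changes over 2-fold and 88 genes in the test of the WT against the het age effect, and moved the cholesterol synthesis median to -0.026. The edgeR likelihood-ratio test called 2455 genes lower. The causes of these differences were not tested. Replicate numbers did not pair the samples: deviations of same-numbered libraries correlated at -0.17, 0.15 and -0.19 over genes. A fit with the replicate block called 3107 genes, 680 of them over 2-fold, and ended the calls of 8 named genes, and the 6 WT libraries alone with the block gave 2957. Low counts limited the markers of vessels, macrophages and retina, where several genes were at or under the floor at day 14. Such genes passed the filter on low counts through other libraries, so their calls as lower are no independent support.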
